A study of Homo sapiens with 4 samples.

Results

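The miRNAs of exosomes released by parental cultures of HCT15 and of HCT29, as the labels call these 2 established human colon cancer lines, were compared. Of 2588 listed miRNAs, 224 had at least 10 reads in 1 or both parental libraries, and these are the members described here. Both parental cultures were grown in complete RPMI. For both, vesicles were purified by differential ultracentrifugation of medium that had been depleted of exosomes. The only other libraries of the series, 1 per line, came from spheres, floating colonies grown for 3 weeks in DMEM/F12 with N2 supplements, 10 ng/ml bFGF and 10 ng/ml EGF. No group carries a transgene or a drug. The growth protocol text given for the HCT29 samples names HCT15, so the labels leave the identity of that line unsettled. Epithelial markers were read in both parental libraries (all 3 measured intestinal and all 8 measured miR-200 family members), and muscle markers had 0 reads in both.

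There was 1 library per group, so a ratio between the parental libraries comes without replicate error and without a p-value, and line and library cannot be told apart. Values are RPM, reads scaled to the total of their library, and 100% of them converted to whole reads within 0.1 read. The HCT15 parental library held 146648 reads, 77.8% of them in listed miRNAs, and the HCT29 parental library 110666 reads, 87.3% of them in listed miRNAs. A count of 0 was placed at 3 reads, which is 20.5 RPM in HCT15 and 27.1 RPM in HCT29. Folds given as "at least" use this floor and are not interval limits. Their exact lower limits are smaller, such as 12.3 beside 15.9 for miR-584-5p. All intervals are exact 95% intervals of the ratio of RPM and cover counting error only. RPM is a share of a library, so more vesicles holding a miRNA and more copies per vesicle cannot be told apart.

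A miRNA guides the Argonaute protein to messenger RNAs that pair with its seed, bases 2 to 8, and lowers their translation and stability. Most miRNAs are cut in sequence from a hairpin by the Microprocessor complex in the nucleus and by Dicer in the cytoplasm, and the strand that Argonaute keeps is the major arm. Cells release part of their miRNAs in vesicles. miRNAs of the same seed can target the same messengers, and miRNAs of the same primary transcript are made together, although they need not be equally stable.

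The sequences that carry the comparison are printed 5′ to 3′ from RefSeq (GRCh38.p14), with the seed in capitals. The first set was higher in HCT29. miR-192-5p and miR-215-5p share a seed, as do miR-200a-3p and miR-141-3p, while miR-200b-3p of the same family has another seed.
miR-192-5p: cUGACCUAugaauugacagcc
miR-215-5p: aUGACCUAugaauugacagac
miR-194-5p: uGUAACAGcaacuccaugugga
miR-200a-3p: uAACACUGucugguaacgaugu
miR-141-3p: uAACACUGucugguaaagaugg
miR-200b-3p: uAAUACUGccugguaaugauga
miR-99b-5p: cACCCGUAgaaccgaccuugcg
miR-577: uAGAUAAAauauugguaccug
miR-183-5p: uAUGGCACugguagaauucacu
miR-27b-3p: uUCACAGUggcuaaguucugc

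The second set was lower in HCT29 or, for miR-25-3p and let-7f-5p, shares its seed with a miRNA that was. miR-372-3p and miR-373-3p have 1 seed, miR-92a-3p and miR-25-3p another, and the let-7 members a further one.
miR-371a-5p: aCUCAAACugugggggcacu
miR-372-3p: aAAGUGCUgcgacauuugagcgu
miR-373-3p: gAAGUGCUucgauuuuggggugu
miR-9-5p: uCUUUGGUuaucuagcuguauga
miR-92a-3p: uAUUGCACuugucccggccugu
miR-25-3p: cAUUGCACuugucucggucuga
let-7a-5p: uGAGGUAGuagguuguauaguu
let-7b-5p: uGAGGUAGuagguugugugguu
let-7f-5p: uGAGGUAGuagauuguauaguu

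HCT29 parental exosomes carried more of the epithelial miRNAs miR-192-5p, miR-200a-3p and miR-141-3p and more miR-99b-5p than HCT15 parental exosomes. Other epithelial miRNAs went the other way, with miR-200c-3p and miR-375 lower in HCT29. The HCT29 exosomes also carried less let-7b-5p, miR-92a-3p and miR-10b-5p, and 0 reads of the pluripotency miRNAs that HCT15 exosomes held. Of the 224 members, 51 were at least 2-fold higher in HCT29 (22.8%), 104 at least 2-fold lower (46.4%) and 69 within 2-fold, as log2 of RPM + 1. Counting intervals excluded a ratio of 1 for 49 of the higher and 98 of the lower members. The median log2 ratio was -0.84.

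The balance of higher and lower depended on which library a miRNA was detected in and on the scaling. HCT15 alone brought 73 members past 10 reads and HCT29 alone 24, and such members had to lie on the side of that library, which also fixes the direction in lists made up of them. Among the 127 members with at least 10 reads in both, 30 were higher and 38 lower, with a median log2 ratio of -0.12. TMM scaling, which centres the bulk of the miRNAs, moved the median by 0.47 and gave 68 higher and 87 lower. With the size factors of DESeq2 the shift was 0.60 and the counts 71 and 84. Scaling to listed miRNA reads moved it by -0.17 and gave 48 and 113. At the edge of the filter 8 members had exactly 10 reads in their higher library, and 3 miRNAs with 9 were left out.

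**Figure D1:**
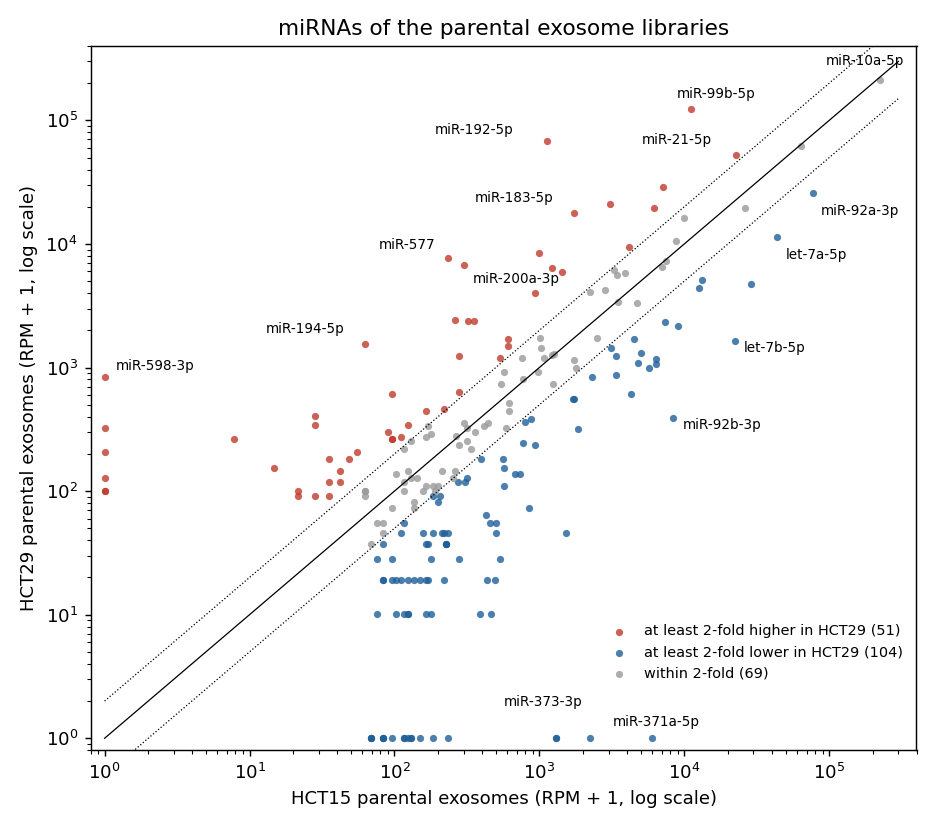
RPM + 1 of the 224 members in HCT15 parental (x axis) and HCT29 parental (y axis) exosomes, both on log scales, 1 point per miRNA and 1 library per axis. The solid line marks equal values and the dotted lines 2-fold. miR-10a-5p lies close to the line, miR-192-5p and miR-99b-5p far above it, and miR-371a-5p at 0 RPM in HCT29.

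The miRNAs of intestinal epithelium stood highest among the lists. miR-192-5p, which is abundant in gut, liver and kidney epithelium, was at 1125 RPM in HCT15 and 68268 RPM in HCT29, which is 60.7-fold higher (52.0 to 71.2). miR-194-5p, made from the same transcripts, was at 61.4 and 1563 RPM, 25.5-fold higher (13.1 to 56.7). miR-215-5p, which shares the seed of miR-192-5p, was at 27.3 and 343 RPM, 12.6-fold higher (4.53 to 48.6) on 4 HCT15 reads. Of 3 measured members 3 were higher under every scaling, beside 22.8% of all members. Of the 3, only miR-192-5p had 10 reads in both libraries. miR-194-5p and miR-215-5p passed through HCT29 alone, which fixed their direction. The summed RPM of the list was 57.2-fold higher (49.3 to 66.7), and miR-192-5p made up 68268 of its 70193 RPM in HCT29. miR-192-5p lies at chr11:64891203-64891223 on the minus strand (GRCh38), in an exon of the host transcript MIR194-2HG that also holds a copy of miR-194. A further copy of miR-194 lies beside miR-215 on chromosome 1.

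The miR-200 family, which represses the transcription factors ZEB1 and ZEB2 and so maintains the epithelial state, was mostly higher in HCT29. Among its 8 measured members, 6 lay past 2-fold on the higher side in HCT29, and miR-200c-3p and miR-141-5p lay past 2-fold on the lower side. Of all members 22.8% were higher and 46.4% lower. Their median log2 ratio was 2.05, beside -0.84 over all members, and the summed RPM was 3.37-fold higher (3.16 to 3.60). All 8 had 10 reads in both libraries. Of all 127 such members 30 were higher and 38 lower, with a median log2 ratio of -0.12. TMM scaling left 1 lower and DESeq2 factors 0, and scaling to listed reads gave 5 higher and 2 lower. miR-200a-3p was at 300.04 RPM in HCT15 and 6732 RPM in HCT29, 22.4-fold higher (16.6 to 31.2). miR-141-3p, which has the same seed, was at 996 and 8449 RPM, 8.49-fold higher (7.12 to 10.2). These were the widest gaps of the family.

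Its other seed group did not move as one. miR-429 was at 320.5 and 2395 RPM, 7.47-fold higher (5.46 to 10.4), and miR-200b-3p, the most abundant of the family in both libraries, at 4180 and 9371 RPM, 2.24-fold higher (2.03 to 2.48). miR-200c-3p was at 2318 RPM in HCT15 and 831 RPM in HCT29, 2.79-fold lower (2.21 to 3.55). The transcript on chromosome 1 (chr1:1167124-1169076, plus strand) gave 5 measured arms, all higher, with log2 ratios from 1.16 to 4.48. The transcript on chromosome 12 gave miR-141-3p, which was higher, and miR-200c-3p, which was lower.

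miR-99b-5p moved the most reads of all members. It was at 11136 RPM in HCT15 and 123082 RPM in HCT29, 11.1-fold higher (10.5 to 11.6), and gained 12.7 percentage points of the listed miRNA reads. It lies at chr19:51692618-51692639 (plus strand) in an intron of SPACA6, beside let-7e and miR-125a. Its neighbours did not follow it. miR-125a-5p, a repressor of ERBB2 and ERBB3, was at 6417 and 1057 RPM, 6.07-fold lower (5.00 to 7.42), and let-7e-5p at 1746 and 1148 RPM, 1.52-fold lower (1.23 to 1.90). The opposite arm of the same hairpin, miR-99b-3p, was at 300.04 and 352 RPM, a ratio of 1.18 (0.743 to 1.85). Of the 6 measured members of the miR-99, miR-100 and miR-125 list, 1 was higher and 3 lower (2 under TMM or DESeq2 factors, 4 per listed reads), and among all members 22.8% were higher and 46.4% lower. The counts of so small a list lie near those shares.

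The cluster of miR-23b, miR-27b and a copy of miR-24 on chromosome 9 was higher in all 3 measured arms. miR-27b-3p was at 3089 RPM in HCT15 and 21172 RPM in HCT29, 6.85-fold higher (6.195 to 7.596). miR-23b-3p was at 259 and 2440 RPM, 9.42-fold higher (6.69 to 13.6). miR-24-3p, which has a further copy on chromosome 19, was at 280 and 1229 RPM, 4.40-fold higher (3.08 to 6.395). In the paralogous cluster on chromosome 19 the arms went both ways. miR-27a-3p was 2.81-fold higher (2.18 to 3.66), and miR-23a-3p had a ratio of 1.73 (1.39 to 2.16). The arms that are usually scarce were lower, miR-24-2-5p with 18 reads in HCT15 and 1 in HCT29, a ratio of 13.6 (2.15 to 566), and miR-27a-5p with 16 and 2, a ratio of 6.04 (1.42 to 54.1). The list of these families leaves out miR-24-2-5p. Of its 6 measured members 4 were higher and 1 lower, or 5 and 1 under TMM or DESeq2 factors. Of all 224 members 22.8% were higher and 46.4% lower. Among the 5 members of the list that passed the read filter in both libraries, 4 were higher and 0 lower. Of all 127 such members 30 were higher and 38 lower.

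Other abundant miRNAs higher in HCT29 came from separate loci. miR-577, in an intron of UGT8 at chr4:114656774-114656794 (plus strand), was at 232 RPM in HCT15 and 7627 RPM in HCT29, 32.9-fold higher (23.4 to 47.8). miR-183-5p, of a cluster active in sensory cells and raised in many carcinomas, was at 1732 and 17919 RPM, 10.3-fold higher (9.07 to 11.8). Its cluster partner miR-182-5p, which is more abundant, stayed within 2-fold, at 26131 and 19654 RPM. miR-181a-5p was 4.04-fold higher (3.76 to 4.33), from 7153 to 28871 RPM, and miR-151a-3p 3.15-fold higher (2.92 to 3.41), from 6199 to 19554 RPM. miR-21-5p, raised in most solid tumours, was at 22776 and 52898 RPM, 2.32-fold higher (2.23 to 2.42).

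A few miRNAs were read in the HCT29 parental library and had from 0 to 4 reads in that of HCT15. miR-598-3p counted 0 reads in HCT15 against 92 in HCT29, at least 40.6-fold higher by the floor of 3 reads (exact lower limit 32.4). miR-584-5p, which lies in an intron of SH3TC2, went from 0 reads in HCT15 to 36 in HCT29, at least 15.9-fold higher. For miR-455-3p, in an intron of the collagen gene COL27A1, the reads were 0 and 23, at least 10.2-fold higher. miR-582-3p had 1 and 29 reads, a ratio of 38.4 (6.37 to 1570), and miR-501-3p 4 and 45 reads, a ratio of 14.9 (5.44 to 57.1).

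**Figure D2:**
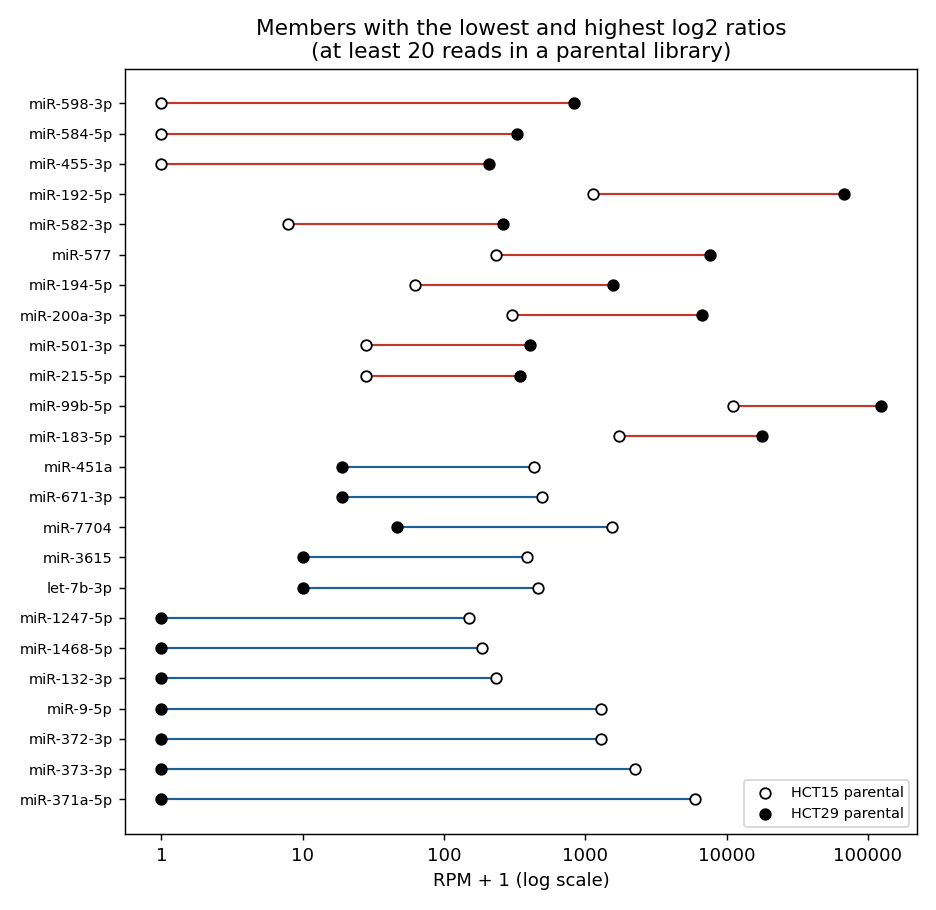
RPM + 1 (log scale) in HCT15 parental (open) and HCT29 parental (filled) exosomes for the 12 members with the lowest and the 12 with the highest log2 ratios among those with at least 20 reads in a parental library. Red lines join miRNAs higher in HCT29 and blue lines those lower. Of the 24, miR-99b-5p and miR-192-5p reach the highest values, and 7 of the lower 12 are at 0 in HCT29.

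Pluripotency miRNAs were found in HCT15 exosomes and not detected in those of HCT29. miR-371a-5p, miR-372-3p and miR-373-3p come from a cluster on chromosome 19 (chr19:53787680-53788770, plus strand) that is active in embryonic stem cells and germ cell tumours, and miR-372-3p and miR-373-3p repress the tumour suppressor LATS2. miR-371a-5p had 879 reads (5994 RPM) in HCT15 and 0 in HCT29, at least 221-fold lower (exact lower limit 179). By the floor of 3 reads, miR-373-3p with 330 and 0 reads was at least 83.0-fold lower, and miR-372-3p with 191 and 0 at least 48.1-fold lower. The list summed to 1425 and 0 reads. Of 110666 HCT29 reads, the floor for a count of 0 is 27.1 RPM, and the exact upper limit for each miRNA is 33.3 RPM. Of the list's 18 entries 4 had 10 reads in a library, all 4 through HCT15 alone.

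Among miRNAs best known from nerve cells, 3 of 4 measured members passed the filter through HCT15 alone, which fixed their direction. miR-9-5p, which is abundant in brain, had 191 reads (1302 RPM) in HCT15 and 0 in HCT29, at least 48.1-fold lower. miR-132-3p had 34 and 0 reads, at least 8.55-fold lower, and miR-124-3p 18 and 0, at least 4.53-fold lower. miR-128-3p was within 2-fold, at 586 and 325 RPM (a ratio of 1.80 in favour of HCT15, 1.21 to 2.74). Further members at 0 in HCT29 with at least 20 HCT15 reads were miR-1468-5p (27 reads, at least 6.79-fold lower) and miR-1247-5p (22 reads, at least 5.53-fold lower).

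The let-7 family, which represses RAS, MYC and HMGA2 in differentiated cells, was lower in HCT29 for most members and higher for 1. Of 13 measured arms 8 were lower and 1 higher, beside 46.4% lower and 22.8% higher of all members. The median log2 ratio was -1.93, beside -0.84 over all members, and the summed RPM 2.10-fold lower (2.03 to 2.17). The lower count was 8 under each of the 3 other scalings, while the higher count became 2 under TMM and 3 under DESeq2 factors. Among the 10 members with at least 10 reads in both libraries, 5 were lower and 1 higher. Of all 127 such members 38 were lower (29.9%) and 30 higher. let-7a-5p was at 43321 RPM in HCT15 and 11331 RPM in HCT29, 3.82-fold lower (3.60 to 4.07). let-7b-5p was at 22203 and 1645 RPM, 13.5-fold lower (11.6 to 15.8). let-7f-5p, of the same seed, was within 2-fold and had the opposite sign, at 9908 and 16084 RPM (a ratio of 1.62, 1.51 to 1.74). Under TMM and DESeq2 factors its log2 ratio was 1.17 and 1.30, past 2-fold. miR-98-5p, with that seed too, was at 1425 and 5919 RPM, 4.15-fold higher (3.55 to 4.88). The let-7 paralogues differ by few bases, so reads of 1 member can be assigned to another, and the rule for such reads is not given here. These values are uncertain to that extent.

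The seed group of miR-92a-3p split in a like way. miR-92a-3p, of the MIR17HG transcript and a paralogous cluster on chromosome X, was at 77860 RPM in HCT15 and 25844 RPM in HCT29, 3.01-fold lower (2.89 to 3.14). Under DESeq2 factors its log2 ratio was -0.99, just within 2-fold. Its share fell by 7.04 percentage points of the listed reads. miR-92b-3p was at 8394 and 389 RPM, 21.6-fold lower (15.9 to 30.01). miR-25-3p was at 3873 and 5837 RPM, a ratio of 1.51 (1.34 to 1.69) the other way. miR-17-5p, of the same transcript as a copy of miR-92a, was at 1221 and 1256 RPM, a ratio of 1.03 (0.819 to 1.29). The clusters of miR-17-92 and paralogue miRNAs promote proliferation. In the list of these miRNAs, 2 of 13 measured members were higher and 4 lower, beside 22.8% higher and 46.4% lower of all members. The counts became 6 and 3 under TMM and 6 and 2 under DESeq2 factors. Among the 9 members of the list that passed the read filter in both libraries, 2 were higher and 1 lower (11.1%). Of all such members 29.9% were lower, so the list held no excess of lower calls. That list leaves out miR-92a-1-5p, the scarce arm of a miR-92a hairpin, which had 32 and 2 reads, a ratio of 12.1 (3.08 to 104) in favour of HCT15.

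Among the other abundant miRNAs lower in HCT29 was miR-10b-5p, which lies among the HOXD genes. It was at 28770 RPM in HCT15 and 4780 RPM in HCT29, 6.02-fold lower (5.50 to 6.6). Its paralogue miR-10a-5p, among the HOXB genes, was nearly level at 224238 and 212296 RPM, a ratio of 1.06 in favour of HCT15 (1.04 to 1.07). miR-375, abundant in secretory cells, was at 5714 and 994 RPM, 5.75-fold lower (4.71 to 7.08), and miR-148a-3p at 6417 and 1166 RPM, 5.51-fold lower (4.58 to 6.67). miR-222-3p was at 9110 and 2169 RPM, 4.20-fold lower (3.66 to 4.84), while its cluster partner miR-221-3p was at 7528 and 7310 RPM. miR-26a-5p, at 12588 and 4364 RPM, was 2.88-fold lower (2.61 to 3.195). miR-22-3p, at 13263 and 5151 RPM, was 2.57-fold lower (2.34 to 2.83), but TMM scaling brought miR-22-3p within 2-fold, at -0.90 (log2), and DESeq2 factors brought both within it.

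Several abundant members lay close to equality. miR-191-5p was at 63744 RPM in HCT15 and 62341 RPM in HCT29, a ratio of 1.02 (0.991 to 1.06), and miR-16-5p, which restrains the cell cycle, at 7051 and 6479 RPM, a ratio of 1.09 (0.988 to 1.199). miR-30d-5p was at 8817 and 10636 RPM. These ratios are of RPM, and under TMM scaling each of these moves by 0.47 on the log2 scale. Across the members, log2(RPM + 1) of both libraries had a Pearson r of 0.552 and a Spearman rho of 0.62, as a description over miRNAs that share each library's depth. Of the 10 most abundant miRNAs of each library, 5 were shared.

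The next lists were made up largely of members that passed through HCT15 alone. Of 7 measured miRNAs that bypass the Microprocessor, 7 were lower under every scaling, with a median log2 ratio of -2.61, or -2.12 with the member at 0 set at its bound. The 3 of them with 10 reads in both libraries were lower too, beside 29.9% of all such members. In that list miR-320a, the most abundant, was at 4767 RPM in HCT15 and 1093 RPM in HCT29, 4.36-fold lower (3.59 to 5.33), and miR-3615 had 57 and 1 reads, a ratio of 43.0 (7.42 to 1728). In the imprinted DLK1-DIO3 cluster of chromosome 14, the 6 measured members all passed through HCT15 alone, which fixed their direction, and the cluster summed to 214 and 19 reads, 8.50-fold lower (5.31 to 14.4). Its most abundant measured member, miR-411-5p, had 67 and 6 reads. Of the NF-kB linked miRNAs, miR-155-5p was at 846 and 72.3 RPM, 11.7-fold lower (5.76 to 27.7), and miR-146a-5p, a feedback inhibitor of NF-kB signalling, at 184 and 45.2 RPM, 4.07-fold lower (1.55 to 13.6). The third measured member, miR-146b-5p, which shares the seed of miR-146a-5p, was level at 266 and 280.1 RPM, and the reads of that seed together had a ratio of 1.38 (0.908 to 2.14), an interval that holds 1.

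Blood cell and serum markers and entries of structural RNA had higher summed RPM in HCT15. Of 4 measured blood cell markers 4 were lower, or 2 under TMM or DESeq2 factors, against 104 of all 224 members, or 87 under TMM. The scaled counts lie near the share of all members. The markers summed to 594 reads (4051 RPM) in HCT15 and 182 reads (1645 RPM) in HCT29. The erythroid miR-451a had 64 reads in HCT15 and 2 in HCT29, a ratio of 24.1 (6.42 to 204), and 0 in both sphere libraries, and miR-486-5p was at 3109 and 1437 RPM. The serum carry-over markers, which share both of these, had 4 of 4 lower, or 3 under TMM or DESeq2 factors, and summed to 12840 and 3371 RPM. Most of that sum was miR-423-5p, at 4992 and 1301 RPM, and miR-423-3p, at 4303 and 605 RPM. Both arms of miR-423 were also read in both sphere libraries. Of 7 measured entries that overlap structural RNA 6 were lower and 1 higher (4 and 1 under TMM or DESeq2 factors), at 4091 and 1066 RPM in sum, with miR-7704 at 1534 and 45.2 RPM, a ratio of 33.96 (14.3 to 106). The part of these in the lower calls was not tested. Muscle markers had 0 members measured, and the chromosome 19 cluster 0, with 7 and 2 reads in all.

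Among mesenchymal markers 1 miRNA was higher and 1 level. miR-199a-3p, listed with the same values as miR-199b-3p and counted with it as 1, had 14 reads in HCT15 and 29 in HCT29, 2.74-fold higher (1.41 to 5.62). miR-143-3p, the most abundant, was level at 1077 and 1184 RPM, a ratio of 1.10 (0.865 to 1.39). The endothelial miR-126-5p was level at 771 and 813 RPM, and miR-126-3p was 4.53-fold lower (1.56 to 18.0) on 24 and 4 reads. The hypoxia miRNA miR-210-3p was within 2-fold, at 621 and 515 RPM.

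**Figure D3:**
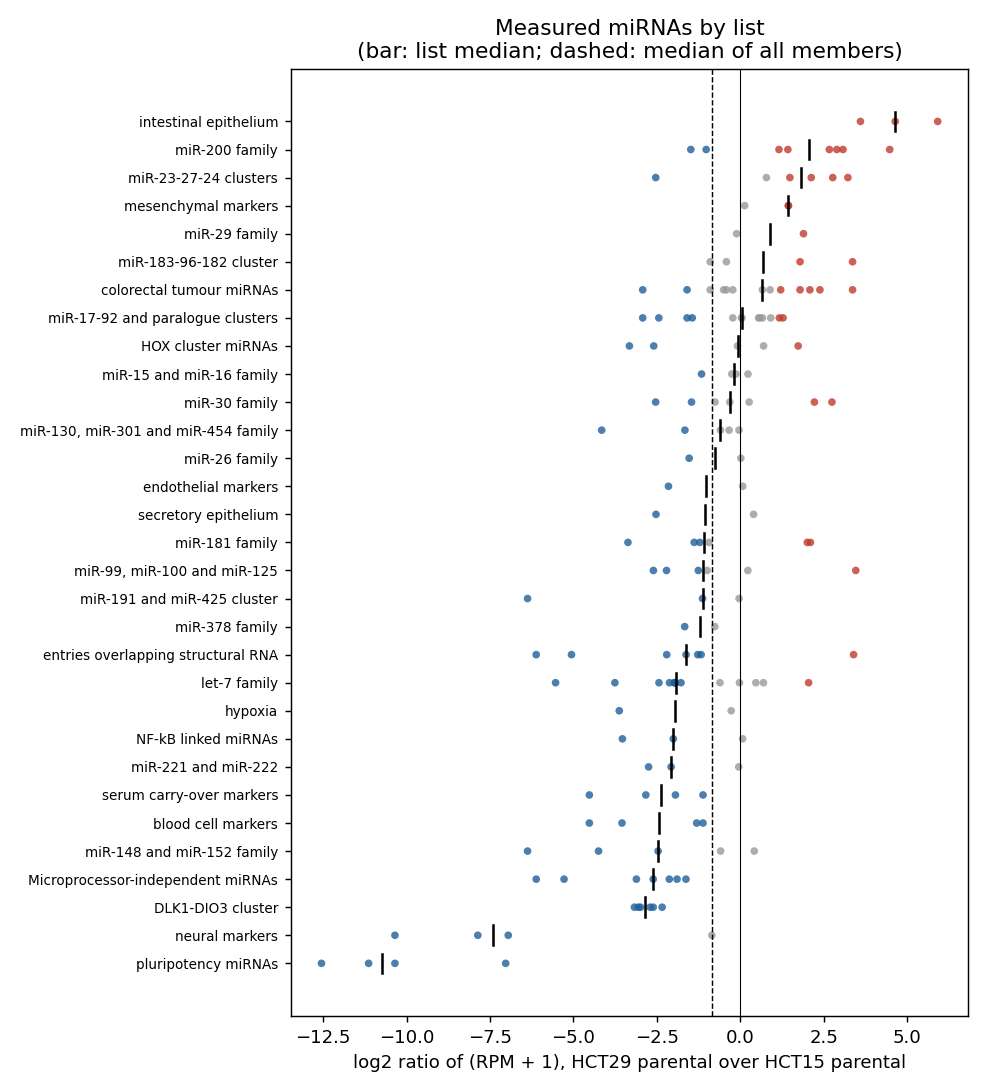
Log2 ratio of RPM + 1, HCT29 parental over HCT15 parental (x axis), for the measured members of each list with 2 or more (1 row per list, 1 point per miRNA, red higher, blue lower, grey within 2-fold). Black bars are list medians and the dashed line is the median of all 224 members, -0.84. Intestinal epithelium and the miR-200 family lie at the top, and neural and pluripotency miRNAs at the bottom.

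Grouped by seed, the pool that each library offers differed in a few large blocks. RefSeq gave a mature sequence for 194 of the 224 members, in 145 seeds. The seed UGACCUA of miR-192-5p and miR-215-5p held 0.148% of the listed reads in HCT15 (0.127 to 0.172) and 7.86% in HCT29 (7.69 to 8.03). The seed ACCCGUA of miR-99b-5p and miR-100-5p held 1.47% (1.397 to 1.54) and 14.1% (13.9 to 14.3). The seed AACACUG of miR-200a-3p and miR-141-3p held 0.166% (0.144 to 0.192) and 1.74% (1.66 to 1.82). These 3 blocks were larger in HCT29.

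Other blocks shrank. The seed AUUGCAC of miR-92a-3p, miR-92b-3p and miR-25-3p held 11.6% in HCT15 (11.4 to 11.8) and 3.68% in HCT29 (3.56 to 3.80). The let-7 seed GAGGUAG, with 9 measured members, held 11.2% (11.02 to 11.4) and 4.81% (4.67 to 4.95). Of the 30 seeds with 2 or more measured members, 20 had all their members on 1 side of equality. The seed of miR-199a-3p with miR-199b-3p and that of miR-365a-3p with miR-365b-3p hold entries of equal values, which had to agree. Seen over all miRNAs, 39.6% of the listed reads were placed differently in the parental pair and 52.1% in the sphere pair.

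Members of 1 primary transcript often differed in direction. With loci taken as neighbours within 10000 bases on 1 strand, 31 clusters held 2 or more measured loci, and in 18 of them (16 under TMM) all members lay on 1 side of equality. The 18 include the 5 loci of miR-941, which give 1 measured miRNA and so had to agree. In 5 clusters both a higher and a lower call occurred. The cluster of miR-99b, let-7e and miR-125a was the widest of those named here, with log2 ratios from -2.60 to 3.47. The copies of let-7a and let-7b on chromosome 22 were lower in all 4 measured arms, from -5.53 to -1.77. Some of these mature miRNAs have further gene copies, which the values cannot separate.

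The arms of 1 hairpin also differed. Of 40 hairpins whose arms were both members and that had reads in both libraries, 3 with an arm at 0 in a library, 27 had both arms on the same side of equality and 3 had arms called opposite ways. For 21 the share of an arm had intervals that did not touch. The 5p arm of miR-141 held 15.6% of its hairpin's reads in HCT15 (10.5 to 21.9) and 1.06% in HCT29 (0.509 to 1.94). The 5p arm of miR-27a held 15.2% (8.97 to 23.6) and 1.05% (0.127 to 3.73), and the 3p arm of let-7d 47.4% (41.5 to 53.3) and 14.1% (9.44 to 20.02). miR-21 went the other way, its 3p arm rising in share from 5.11% (4.41 to 5.89) in HCT15 to 10.9% (10.1 to 11.6) in HCT29. These differences of the parental pair did not recur in HCT15 and HCT29 sphere exosomes. There the shares were 1.24% and 1.25% for miR-141-5p and 0.21% and 0.37% for miR-27a-5p. For let-7d-3p they were 32.3% and 53.5%, and for miR-21-3p 11.35% and 6.66%.

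Minor arms were then counted in all 4 libraries, a count chosen after the values were seen. The same arm of a hairpin was taken as minor in all 4 libraries. Such an arm could hold most of the reads in a library, as miR-423-3p did with 62.9% in HCT15 sphere exosomes. Among 52 hairpins with at least 50 reads in each library, the median share of the minor arm was 1.86% in HCT15 parental, 0.625% in HCT29 parental, 0.972% in HCT15 sphere and 0.360% in HCT29 sphere exosomes. The share was higher in HCT15 than in HCT29 for 29 of 52 hairpins in the parental pair, lower for 13 and equal for 10. In the sphere pair the share was higher in HCT15 for 38 of the 52. Over the wider set of 458 hairpin names with both arms listed and a read in any library, minor arms held 2.62% of the reads in HCT15 parental (2.52 to 2.72) and 2.04% in HCT29 parental (1.95 to 2.14). Of the 42 members that are minor arms 27 were lower and 7 higher, but 26 of the 42 passed through HCT15 alone and had to lie on that side. Among the 13 with 10 reads in both libraries 4 were lower (30.8%) and 4 higher, beside 34 lower (29.8%) and 26 higher of 114 other members. The part of degraded or passenger RNA in these values was not tested.

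**Figure D4:**
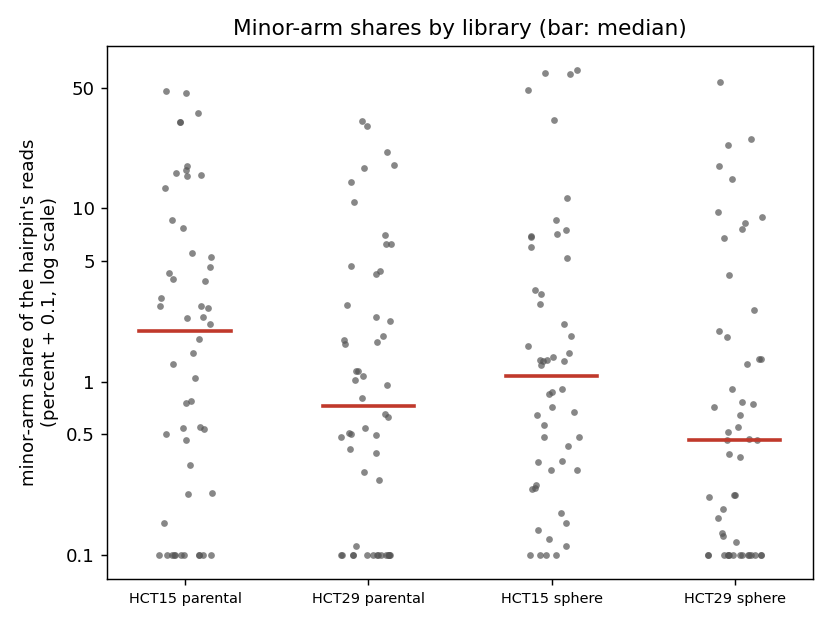
Share of a hairpin's reads held by its minor arm (percent + 0.1, log scale) in each of the 4 libraries, 1 point per hairpin for 52 hairpins with at least 50 reads in every library, with horizontal jitter. The red bar is the median, which is highest in HCT15 parental (1.86%) and lowest in HCT29 sphere (0.360%).

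Base composition moved with the parental ratio. The members lower in HCT29 had a median GC content of 50%, those higher 44.5% and those within 2-fold 44.7%. Over the 65 members with the lowest GC content the median log2 ratio was 0.05, over the middle 64 it was -0.92 and over the highest 65 it was -1.89. The Spearman rho of GC content with the log2 ratio was -0.343 over 194 members, and -0.276 over the 112 with at least 10 reads in both libraries. In the sphere pair the same rho was 0.158 (182 members), so the order was not that of the sphere libraries. The part of base composition in the parental ratios was not tested. The letters GGAG, described as a motif of exosome loading, occurred in 0 of 42 higher, 7 of 90 lower and 3 of 62 members within 2-fold, and in 372 of 2370 RefSeq mature miRNAs.

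The sphere libraries gave a second comparison of the lines that shares no library with the first. Of the 51 members higher in HCT29 parental exosomes, 51 had 10 reads in a sphere library, and of these 26 were higher in HCT29 spheres, 15 lower and 10 within 2-fold. Of the 104 lower members 88 were measured in spheres, and 57 were lower, 11 higher and 20 within. Among the 208 members measured there, 24.0% were higher and 51.9% lower in HCT29 spheres. The shared higher calls were 51.0% of the higher members of the parental pair and 52.0% of those of the sphere pair. The shared lower calls were 64.8% of the lower parental members measured in spheres and 52.8% of the lower ones of the sphere pair. Across the 208, the log2 ratios of both pairs had a Pearson r of 0.536 and a Spearman rho of 0.438, as a description.

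The intestinal and pluripotency miRNAs kept their direction in spheres. miR-192-5p was at 4612 RPM in HCT15 spheres and 75266 RPM in HCT29 spheres, 16.3-fold higher, and miR-99b-5p at 10878 and 110431 RPM, 10.2-fold higher. miR-577 was at 176 and 4826 RPM, 27.5-fold higher. miR-371a-5p had 1541 reads in HCT15 spheres and 0 in HCT29 spheres. miR-10b-5p was at 34703 and 590 RPM, and miR-411-5p had 411 and 1 reads.

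Other members went opposite ways in the cultures. miR-141-3p was 8.49-fold higher in HCT29 parental exosomes but at 10041 RPM in HCT15 spheres and 2675 RPM in HCT29 spheres. miR-21-5p was higher in HCT29 parental exosomes but at 31319 RPM in HCT15 spheres and 13124 RPM in HCT29 spheres. miR-375 was lower in HCT29 parental exosomes but at 4599 RPM in HCT15 spheres and 45016 RPM in HCT29 spheres. let-7a-5p, 3.82-fold lower in the parental pair, was level in spheres at 8115 and 8917 RPM, and so was the let-7 sum.

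**Figure D5:**
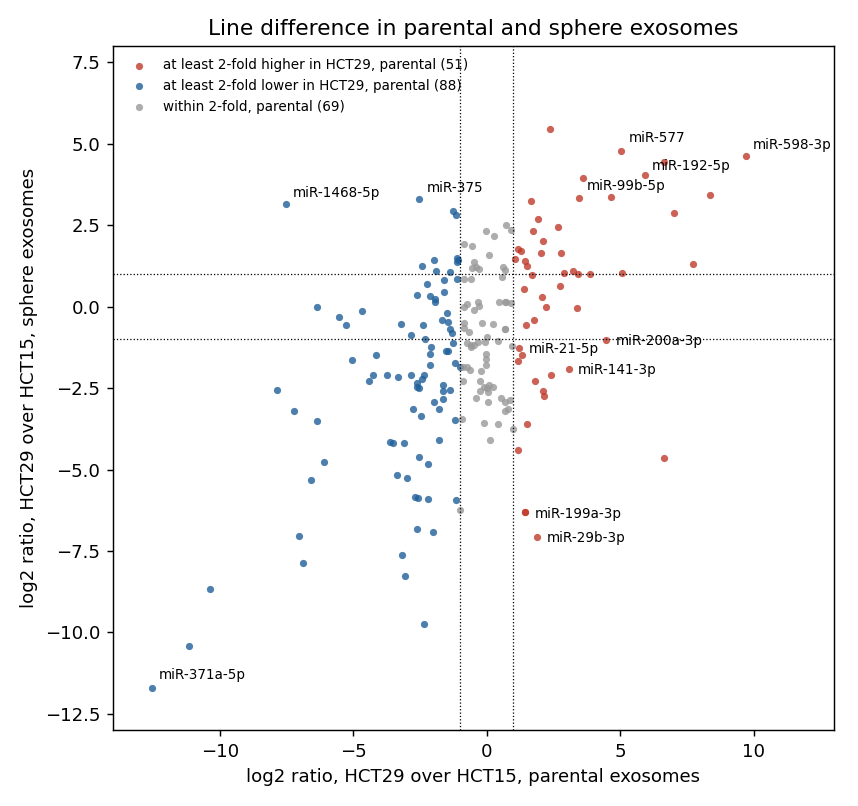
Log2 ratio of RPM + 1, HCT29 over HCT15, in parental exosomes (x axis) and in sphere exosomes (y axis) for the 208 members measured in both pairs, coloured by the parental call, with dotted lines at 2-fold. miR-577, miR-192-5p and miR-598-3p lie high in both pairs, miR-371a-5p low in both, and miR-375, miR-141-3p and miR-199a-3p on opposite sides.

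A test of the line is possible only over all 4 libraries. For this, limma was run on log2(RPM + 1) of the 222 miRNAs that reached 10 reads in 2 or more libraries, with line and culture as terms. The fit takes both cultures of a line as its replicates and has 1 residual degree of freedom. That residual mixes disagreement of the line difference between the cultures with library noise, and cannot separate them. Variances were moderated across miRNAs, so the p-values also rest on the spread of other miRNAs. At a Benjamini-Hochberg adjusted p under 0.05, 8 miRNAs were higher in HCT29 (3.6%) and 20 lower (9.01%), and 52 had an unadjusted p under 0.05. The higher ones were miR-192-5p, miR-194-5p, miR-215-5p, miR-99b-5p, miR-577, miR-598-3p, miR-584-5p and miR-1910-5p. miR-192-5p had a mean log2 difference of 4.98 (SE 1.18, limma adjusted p 0.00141), higher in 2 of 2 pairs. miR-99b-5p had 3.40 (SE 1.08, limma adjusted p 0.0205).

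The lower ones included all 4 measured pluripotency miRNAs, 6 members of the DLK1-DIO3 cluster, miR-449b-5p, miR-132-3p, miR-146a-5p, miR-155-5p and miR-10b-5p. miR-371a-5p had the smallest limma adjusted p, 4.95e-15, and miR-10b-5p had a mean log2 difference of -4.23 (SE 1.23, limma adjusted p 0.0108). Fitted differences of miRNAs at 0 in a library rest on the added 1 and are no bound. The miRNAs miR-371a-5p, miR-373-3p and miR-372-3p passed in all 12 alternatives, miR-449b-5p in 11 and miR-192-5p in 9. Others passed in fewer, with miR-99b-5p and miR-10b-5p in 6, miR-194-5p and miR-215-5p in 4, miR-155-5p in 2 and miR-127-3p in 1. Without the HCT15 parental library limma called 0 higher and 6 lower, with 26 at an unadjusted p under 0.05, and without the HCT15 sphere library 0 and 6, again with 26. Without the HCT29 parental library it called 3 and 15, and without the HCT29 sphere library 2 and 10.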

How the data were processed

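Each deposited table lists RPM of 2588 mature miRNAs, a unit that the HCT15 tables state per the file headers. The HCT29 headers name the culture only, and RPM was read there from the values. TruSeq small RNA libraries were made, per the labels' protocols. The submitters' processing notes name hg19. Aligner, counting rule and annotation: not given in the sources used here. Whole reads were recovered as described above (100% of values within 0.1 read) and served for the filter of 10 reads, intervals (Clopper-Pearson), floors and count tests. The main ratio is of RPM + 1, called at 2-fold. limma 3.58.1, edgeR 4.0.16 and DESeq2 1.42.0 were run in R 4.3.3. Read recovery, the intervals and the main limma and edgeR line fits were checked on simulated data. DESeq2 and limma voom were not. The simulated libraries held line changes without a culture effect or disagreement between cultures. That check therefore cannot show that the p-values of the real line fit hold. Loci and sequences came from RefSeq (GRCh38.p14) and host genes from GENCODE release 29. The members and the 35 lists were chosen with earlier results of these data known. Named were the 12 highest and 12 lowest called ratios with at least 20 reads, the top 10 of each parental library by RPM, up to 3 members per list, up to 10 each way past limma, and 4 fixed miRNAs, in all 101. Other miRNAs in the text were chosen after their values were seen, among them miR-92b-3p, miR-98-5p, miR-429 and miR-200c-3p. Labels do not say that cultures of a line were separate. The limma residual mixes disagreement of the line difference between cultures with technical spread, so its p-values do not measure spread between replicates.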

Additional observations from a re-analysis of the deposited data

Results flagged for a closer look

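For 11 named miRNAs the line difference was at least 2-fold one way in parental exosomes and at least 2-fold the other way in sphere exosomes, and the difference between cultures was not tested. Values are log2 ratios of RPM + 1, HCT29 over HCT15. Higher in HCT29 parental and lower in HCT29 sphere exosomes were miR-200a-3p (4.48 and -1.02), miR-141-3p (3.08 and -1.91), miR-29b-3p (1.90 and -7.06, on 7 and 20 parental reads and 0 HCT29 sphere reads, so that the second value rests on the added 1), miR-96-5p (1.80 and -2.29), miR-199a-3p with miR-199b-3p, equal in every library (1.45 and -6.31) and miR-21-5p (1.22 and -1.25). Lower in HCT29 parental and higher in HCT29 sphere exosomes were miR-1468-5p (-7.53 and 3.15, on 27 and 0 parental reads, so that the first value rests on the added 1, and on 4 HCT15 sphere reads), miR-375 (-2.52 and 3.29), miR-877-5p (-1.89 and 1.11) and miR-486-5p (-1.11 and 1.48). Under TMM scaling within each pair the sphere values of miR-200a-3p and miR-21-5p came within 2-fold, at -0.37 and -0.61, and the parental value of miR-486-5p did too, at -0.64.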

How the results depend on the processing

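Counts of parental calls moved with the filter. With no filter 156 were higher and 289 lower, of 573 miRNAs with a read, and with 10 reads required in both libraries 30 and 38 of 127. The other alternatives, including thinning the HCT15 reads to the HCT29 total (51 and 95) and leaving out minor arms (44 and 77, added after seeing the data), stayed within 1.5 times. Of the 101 named miRNAs 0 turned in direction under the 3 scalings, 2 other pseudocounts and thinning, while TMM brought within 2-fold 6 that were lower (of 49), 0 that were higher (of 27), and moved 5 others past it. Line calls over the 4 libraries (higher and lower) were 8 and 20 in limma, 5 and 5 in edgeR, 8 and 8 in DESeq2, 9 and 11 in limma voom, 2 and 3 with a pseudocount of 0.1, 5 and 12 with no filter, 2 and 5 with no culture term, and from 0 to 3 and from 6 to 15 with 1 library left out. The cause was not tested, except that leaving out a library or the culture term changes the residual degrees of freedom. TMM and a pseudocount of 10 kept both counts within 1.5 times. When 1 library was left out, its line had a lone sample assumed to vary like the other line. No paired analysis was possible because each group holds 1 library, so replicate numbers cannot serve as a block, and the culture term of the limma fit is the only matching of the lines. Depth limits miRNAs under about 27.1 RPM in HCT29 parental and 20.5 RPM in HCT15 parental exosomes, where a count of 0 says only that the miRNA was not detected.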
